A study of Mus musculus with 9 samples.

Results

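The genes described here are 10 feedback inhibitors of MAP kinase signalling in mouse CD8+ T cells given interleukin-15 (IL-15) or interleukin-2 (IL-2). They are the dual-specificity phosphatases Dusp1, Dusp2, Dusp4, Dusp5, Dusp6 and Dusp10, the Sprouty genes Spry1 and Spry2, and the Sprouty-related genes Spred1 and Spred2. They were chosen by symbol, 10 of the 20418 gene symbols in the deposited count tables. Each symbol had 1 RefSeq transcript, and none shared its counts with another symbol. On mm8 they lie on 9 chromosomes, 1 (Dusp10), 2 (Dusp2 and Spred1), 3 (Spry1), 8 (Dusp4), 10 (Dusp6), 11 (Spred2), 14 (Spry2), 17 (Dusp1) and 19 (Dusp5), with exons summing to 1155 bases (Dusp5) to 2997 bases (Spred1). All 10 passed the filter on low counts.

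In the ERK cascade a receptor activates the GTPase RAS, RAS activates the kinase RAF, RAF activates MEK, and MEK phosphorylates ERK, which enters the nucleus and switches on early response genes. Several of the genes that ERK switches on encode its own brakes: DUSP enzymes remove the activating phosphates from MAP kinases, while Sprouty and Spred proteins act upstream, between receptor and RAF. The receptors for IL-2 and IL-15 share their beta and gamma chains and signal through STAT5, through PI3 kinase and through RAS and ERK. In T cells the same brakes are also set by the antigen receptor.

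Spleens of female C57BL/6 mice, 6 weeks old and with no engineered allele named, gave the CD8+ T cells. There was 1 library for each of 8 treatments (IL-15 or IL-2, 500 nM or 1 nM, 24 h or 4 h) and 1 library of untreated cells. Each was made from RNA of 3 identically treated samples pooled, so no condition was repeated. The p-values therefore rest on the spread among single libraries within the factorial layout, which may be technical. How the untreated cells were kept is not given in the sources used here and there was no cytokine-free library at 4 h or 24 h, so an effect of cytokine and an effect of culture cannot be told apart in any comparison with untreated cells, and all of those comparisons share the 1 untreated library.

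Libraries held 27158143 to 48799962 counts over 1 transcript per gene. The defining CD8+ T cell genes were present in every library, with Cd8a at 393 to 985 CPM (counts scaled to a common library size, here by the TMM method) and Cd3e at 45.6 to 89.6 CPM, while Cd4 was at 0.227 to 5.62 CPM. Marker sums of T cells and of other cells moved with the groups. The summed level of 10 myeloid markers was 27.5 to 159 CPM at 500 nM, 208 to 685 CPM at 1 nM and 1108 CPM in untreated cells, with 9 or 10 of the 10 detected and Itgam at 0 in 5 libraries. The summed level of 9 B cell markers was 206 to 349 CPM at 500 nM, 467 to 708 CPM at 1 nM and 676.5 CPM in untreated cells, with 8 or 9 of the 9 detected and Pax5 at 0 in 6 libraries. NK cell markers (4, with Ncr1 at 0 in 3 libraries) summed to 15.2 to 33.0 CPM at 500 nM, 49.5 to 80.7 CPM at 1 nM and 186 CPM in untreated cells. The T cell, CD4+ and regulatory T cell and erythroid sums separated by time, while the dendritic cell sums overlapped slightly between the times. The 9 T cell markers summed to 3667 to 4682 CPM at 24 h, 2842 to 3612 CPM at 4 h and 4551 CPM in untreated cells, and the 4 markers of CD4+ and regulatory T cells to 24.8 to 36.3, 47.0 to 59.2 and 32.0 CPM in the same order. These 4 were Cd4, Foxp3, Ikzf4 and Ctla4. Cd4 itself was highest in untreated cells (5.62 CPM), where the sum of the 4 was below its range at 4 h. The 5 erythroid markers summed to 6.91 to 52.7 CPM at 24 h, 61.3 to 87.9 CPM at 4 h and 143 CPM in untreated cells. The 5 dendritic cell markers, all detected, summed to 9.24 to 29.6 CPM at 24 h, 29.0 to 49.1 CPM at 4 h and 112 CPM in untreated cells. Erythroid and dendritic cell sums were also lower at 500 nM than at 1 nM for each cytokine and time. In these bulk libraries, fewer cells of a type and less RNA per cell cannot be told apart.

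The 250 bases before the transcription start are shown for the 4 members whose overall level changed with dose or whose dose effect changed with time, to set their sequence beside their values. They are from RefSeq (GRCm38.p6, while the counts were made on mm8), where 9 of the 10 members were matched. They lie at chr10:99262981-99263230 (plus strand) for Dusp6, chr17:26508473-26508722 (minus strand) for Dusp1, chr2:127335909-127336158 (plus strand) for Dusp2 and chr1:184034131-184034380 (plus strand) for Dusp10. Each is written 5′ to 3′ on the strand of the gene, and capitals mark matches to the motifs searched.
Dusp6: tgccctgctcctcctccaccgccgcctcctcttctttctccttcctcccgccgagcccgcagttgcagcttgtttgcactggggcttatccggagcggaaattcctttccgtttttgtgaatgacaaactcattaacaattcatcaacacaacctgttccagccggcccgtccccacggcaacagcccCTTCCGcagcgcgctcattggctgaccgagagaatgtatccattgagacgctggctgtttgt
Dusp1: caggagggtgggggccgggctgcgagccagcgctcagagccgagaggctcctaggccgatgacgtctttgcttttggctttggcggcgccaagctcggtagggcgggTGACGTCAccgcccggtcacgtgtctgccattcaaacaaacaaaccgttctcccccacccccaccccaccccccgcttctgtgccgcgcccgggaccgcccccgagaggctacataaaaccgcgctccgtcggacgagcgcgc
Dusp2: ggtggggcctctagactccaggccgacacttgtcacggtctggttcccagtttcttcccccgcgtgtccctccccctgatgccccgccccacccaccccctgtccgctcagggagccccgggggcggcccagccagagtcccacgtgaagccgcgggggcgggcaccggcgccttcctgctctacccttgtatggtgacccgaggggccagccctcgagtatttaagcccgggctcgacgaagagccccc
Dusp10: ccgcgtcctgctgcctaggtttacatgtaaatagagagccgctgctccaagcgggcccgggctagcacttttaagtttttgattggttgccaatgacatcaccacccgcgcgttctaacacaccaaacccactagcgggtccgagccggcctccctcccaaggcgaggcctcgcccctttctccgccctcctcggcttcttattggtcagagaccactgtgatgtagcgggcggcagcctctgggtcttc

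Exact matches to 4 motifs were sought on both strands: TTCNNNGAA (STAT5 type), CGGAAG (ETS type), TGACTCA (AP-1 type) and TGACGTCA (CRE type). No match of one of these motifs overlapped another. Dusp6 held the ETS-type letters on the opposite strand, 62 to 57 bases before the start, as did Spred2 at 43 to 38 bases, and Spred1 held them on its own strand at 17 to 12 bases. The CRE-type letters were in Dusp1 at 143 to 136 bases. The STAT5-type and AP-1-type letters were in none of the 9 windows, which include Dusp2 and Dusp10 with no match at all. Of all 32851 promoter windows of this length, 7.02% held the STAT5-type, 13.6% the ETS-type, 4.46% the AP-1-type and 1.55% the CRE-type letters. A match describes these letters and is not evidence of binding.

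Among the members, the DUSP genes other than Dusp4 had the highest median levels, and Dusp4 and the Sprouty and Spred genes had lower ones. By the authors' RPKM, which divides counts by exon length and depth, the order of median levels over the 9 libraries was Dusp2 (46.3 RPKM, range 22.1 to 81.6), Dusp1 (19.4, range 10.9 to 59.6), Dusp10 (11.5, range 6.24 to 18.5), Dusp6 (6.12, range 3.27 to 24.4) and Dusp5 (5.77, range 1.55 to 12.8). Below these stood Dusp4 (1.19 RPKM, range 0.394 to 2.75), Spred1 (0.613, range 0.281 to 1.09), Spry1 (0.540, range 0.114 to 2.25), Spred2 (0.156, range 0.0669 to 0.485) and Spry2 (0.104, range 0.0268 to 0.259). Every neighbouring pair in this order had overlapping ranges. Dusp2 was 31.8% to 57.8% of the members' summed RPKM. The share of Dusp6 was 1.88% after IL-2 at 1 nM for 4 h, against 20% in untreated cells, and that of Dusp1 was 34.2% against 11.7% in the same libraries. From here on, levels of a single gene across libraries are in TMM-scaled CPM.

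**Figure D1:**
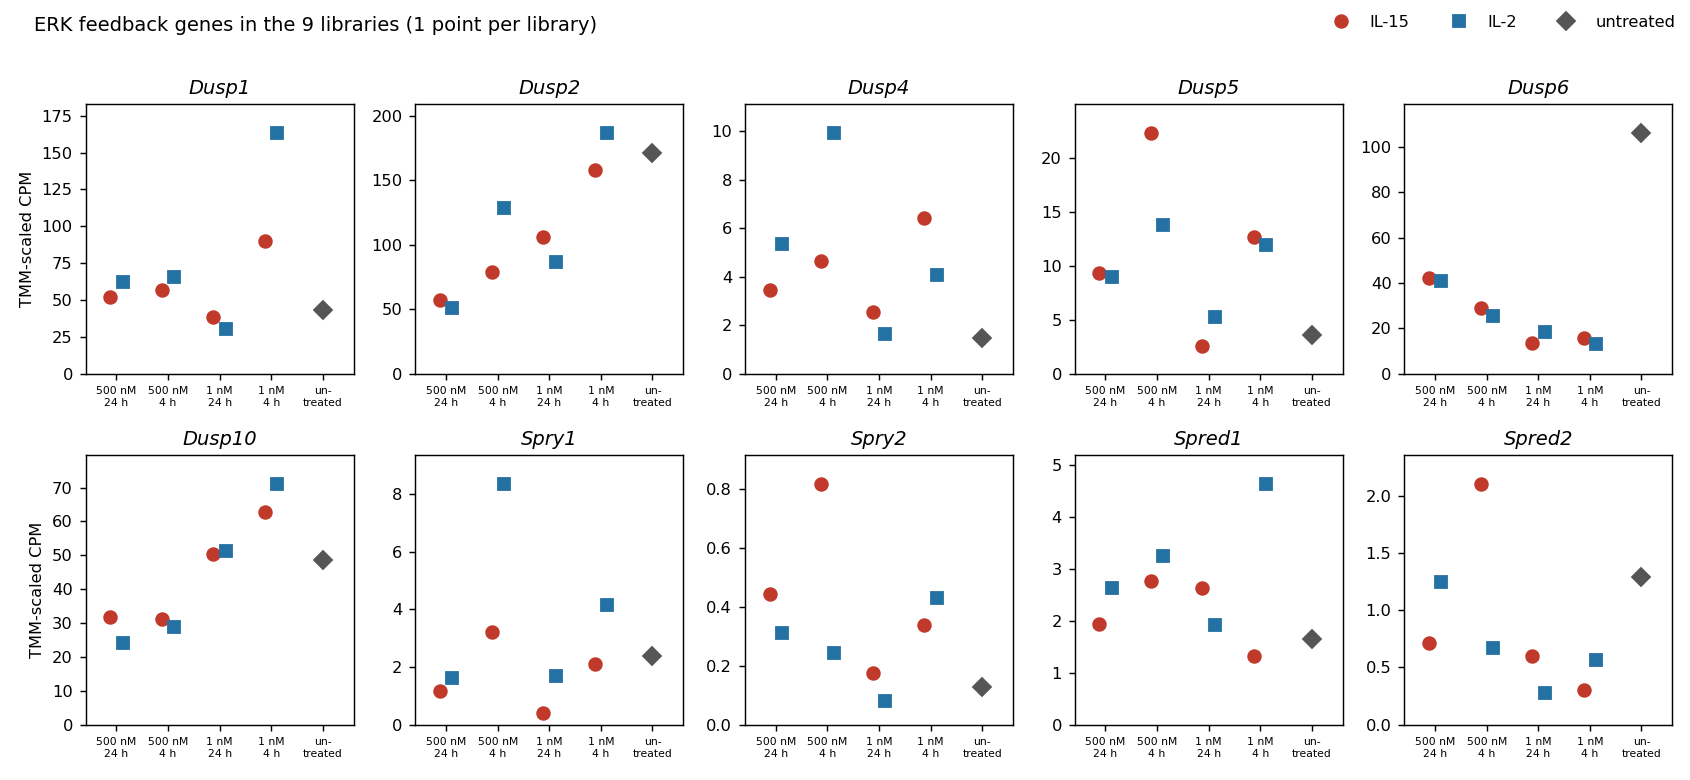
TMM-scaled CPM (y axes, each starting at 0) of the 10 genes in each of the 9 libraries, by dose and time (x axes), with IL-15 as circles, IL-2 as squares and the untreated library as a diamond; each point is 1 library. Dusp6 was at 12.9 to 42.3 CPM in the treated libraries and at 106 CPM in the untreated one, and Dusp1 was highest, at 163 CPM, after IL-2 at 1 nM for 4 h.

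Changes were called at an adjusted p below 0.05 (quasi-likelihood test of edgeR, adjusted by Benjamini-Hochberg over 13479 genes). For 500 nM against 1 nM over both cytokines and times, 3 of the 10 members changed (1 rose, 2 fell), where 16.1% of all genes tested did. For 24 h against 4 h, 1 member fell, where 5.30% of all genes changed. The members' median log2 fold change was 0.75 for dose and -0.92 for time, where the medians of all genes were -0.03 and -0.00. At 24 h alone, 4 members changed with dose (2 rose, 2 fell; 31.2% of all genes), and at 4 h alone 3 did (1 rose, 2 fell; 10.1% of all genes). The difference between these dose effects passed the test for 1 member (8.81% of all genes). Against untreated cells, 3 members fell at 500 nM for 24 h (25.2% of all genes changed), 1 rose and 1 fell at 500 nM for 4 h (16.4%), 1 fell at 1 nM for 24 h (1.65%), and 1 rose and 1 fell at 1 nM for 4 h (6.31%).

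Dusp6, a cytoplasmic phosphatase selective for ERK and a widely used readout of ERK output, was lower in every treated library than in untreated cells and rose with dose. It was at 42.3 and 40.7 CPM after IL-15 and IL-2 at 500 nM for 24 h, 29.1 and 25.5 CPM at 500 nM for 4 h, 13.7 and 18.3 CPM at 1 nM for 24 h, 15.6 and 12.9 CPM at 1 nM for 4 h, and 106 CPM in untreated cells. All 4 libraries at 500 nM were above all 4 at 1 nM (18.9% of all genes did not overlap between the doses), and all 8 were below the untreated one. The share of all genes with the untreated library at an extreme was not worked out. The log2 fold change against untreated cells was -1.35 ± 0.277 at 500 nM for 24 h (adjusted p = 0.0039), -1.96 ± 0.276 at 500 nM for 4 h (5.67e-04), -2.72 ± 0.278 at 1 nM for 24 h (3.75e-04) and -2.90 ± 0.279 at 1 nM for 4 h (2.78e-04). Errors are SE of the fit. It was the only member to change in all 4 of these comparisons, and each call held without any treated library in turn; the untreated library could not be left out.

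With dose, Dusp6 rose by 1.16 ± 0.195 on the log2 scale (adjusted p = 0.00625), with 500 nM over 1 nM ratios of 1.87 to 3.09 in 4 of 4 matched pairs. Leaving out any of the 9 libraries kept this call, with a log2 fold change of 1.02 to 1.28. The rise was 1.37 ± 0.240 at 24 h (adjusted p = 0.00108) and 0.94 ± 0.239 at 4 h (adjusted p = 0.0259). The difference between times was 0.43 ± 0.335 (95% interval -0.29 to 1.16). The rise at 4 h missed the threshold without IL-2 at 1 nM for 4 h (0.78, adjusted p = 0.183), IL-15 at 500 nM for 4 h (0.82, 0.203), IL-15 at 1 nM for 4 h (1.11, 0.0674) or IL-2 at 500 nM for 24 h (0.94, 0.0511). The myeloid, B cell, NK cell, dendritic cell and erythroid sums were lower at 500 nM than at 1 nM in every matched pair. These sums moved in the opposite direction to Dusp6 with dose. They were highest, or near their highest, in untreated cells, as Dusp6 was, and their part in that difference was not tested.

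**Figure D2:**
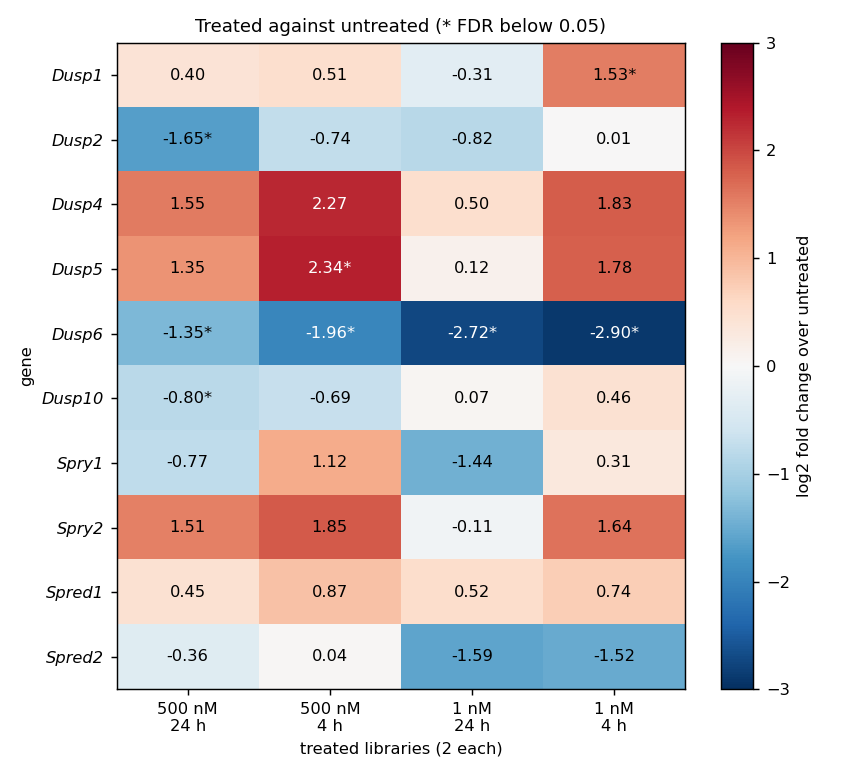
Log2 fold change (colour and printed value) of the 10 genes (rows) in the 2 treated libraries of each dose and time (columns) over the 1 untreated library, with asterisks at an adjusted p below 0.05. Dusp6 was below untreated cells in all 4 columns, at -2.90 to -1.35, while Dusp5 rose at 500 nM for 4 h (2.34) and Dusp1 at 1 nM for 4 h (1.53).

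Dusp1, an immediate early gene whose nuclear product acts on p38, JNK and ERK, had opposite dose effects at the 2 times. It was at 52.0 and 62.2 CPM after IL-15 and IL-2 at 500 nM for 24 h, 56.9 and 65.8 CPM at 500 nM for 4 h, 38.6 and 30.0 CPM at 1 nM for 24 h, 90.3 and 163 CPM at 1 nM for 4 h, and 43.0 CPM in untreated cells. The 2 libraries at 1 nM for 4 h were the highest and the 2 at 1 nM for 24 h the lowest, while the 500 nM libraries lay between them at both times. The 500 nM against 1 nM log2 fold change was 0.71 ± 0.253 at 24 h (adjusted p = 0.0503) and -1.02 ± 0.253 at 4 h (adjusted p = 0.0222). The difference between those effects was 1.73 ± 0.359 (95% interval 0.95 to 2.51, adjusted p = 0.0141). Over both times together the dose effect was -0.16 ± 0.359 (95% interval -0.97 to 0.65).

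At 1 nM for 4 h, Dusp1 rose by 1.53 ± 0.330 on the log2 scale against untreated cells (adjusted p = 0.0192). The library of IL-2 at 1 nM for 4 h weighed most on these values: without it the dose effect at 4 h was -0.58 (adjusted p = 0.281), the rise over untreated cells 1.09 (0.12) and the interaction 1.31 (0.0458). The dose effect at 4 h also missed the threshold without IL-2 at 500 nM for 4 h (-1.0, adjusted p = 0.11) or IL-15 at 500 nM for 4 h (-1.04, 0.138). The interaction missed it without IL-15 at 500 nM for 24 h (1.75, adjusted p = 0.0521). The dose effect at 24 h passed without IL-15 at 1 nM for 24 h (1.17, adjusted p = 0.0134), IL-15 at 1 nM for 4 h (0.73, 0.0236) or IL-2 at 1 nM for 4 h (0.73, 0.0269).

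**Figure D3:**
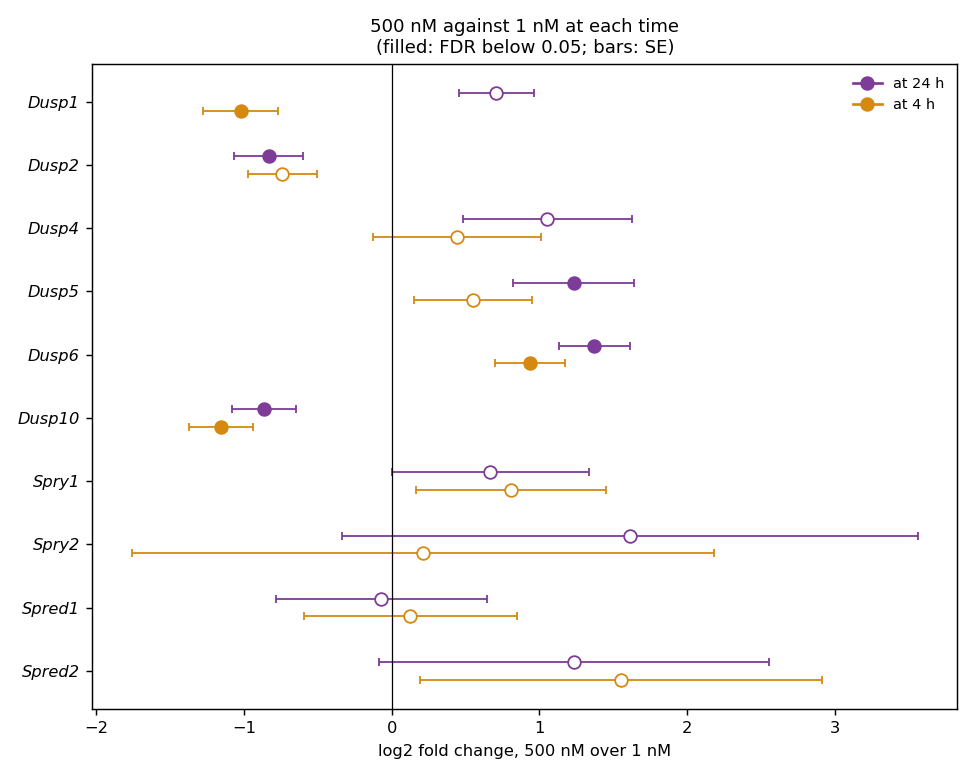
Log2 fold change of 500 nM over 1 nM (x axis) for the 10 genes (rows) at 24 h (upper point of each pair) and at 4 h (lower point); bars are SE of the fit and filled points have an adjusted p below 0.05. Dusp1 lay at 0.71 at 24 h and -1.02 at 4 h, Dusp6 to the right of 0 and Dusp2 and Dusp10 to the left of 0 at both times, and the rarely read Spry2 had the widest bars.

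Dusp2, a nuclear phosphatase of blood cells that acts on ERK and p38, fell with dose and with time. It was at 57.4 and 51.0 CPM after IL-15 and IL-2 at 500 nM for 24 h, 79.0 and 128 CPM at 500 nM for 4 h, 106 and 86.7 CPM at 1 nM for 24 h, 158 and 186 CPM at 1 nM for 4 h, and 171 CPM in untreated cells. Both libraries at 500 nM for 24 h were below all the others. Over all treated libraries it fell by 0.79 ± 0.188 on the log2 scale with dose (adjusted p = 0.024; ratios 0.501 to 0.688 in 4 of 4 pairs). It fell by 0.87 ± 0.189 with time (adjusted p = 0.0382; ratios 0.398 to 0.727 in 4 of 4 pairs). At 500 nM for 24 h it fell by 1.65 ± 0.273 against untreated cells (adjusted p = 0.00118), a call that held without any treated library in turn.

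The log2 fold change of Dusp2 with dose was -0.83 ± 0.233 at 24 h (adjusted p = 0.0171) and -0.74 ± 0.233 at 4 h (adjusted p = 0.0659). The overall dose call was lost without IL-2 at 1 nM for 4 h, IL-2 at 500 nM for 24 h, IL-15 at 1 nM for 24 h, IL-15 at 500 nM for 4 h or IL-15 at 500 nM for 24 h (-0.83 to -0.65, adjusted p = 0.0546 to 0.0866). The time call was lost without any of the 4 IL-2 libraries or without IL-15 at 500 nM for 24 h (-0.91 to -0.72, adjusted p = 0.0956 to 0.134). It was also lost with the matched pairs of libraries as a block (-0.87, adjusted p = 0.0764), an alternative chosen after the data were seen. The CD4+ and regulatory T cell, erythroid and dendritic cell sums were lower at 24 h than at 4 h in every matched pair. This was the same direction as Dusp2, Dusp5 and Spry1 with time, while the T cell sum was higher. The part of these markers in the time values was not tested. The dose call at 24 h was lost without IL-2 at 500 nM for 24 h (-0.65, adjusted p = 0.206), IL-15 at 1 nM for 24 h (-0.51, 0.24) or IL-15 at 500 nM for 24 h (-1.01, 0.0553). At 4 h the dose effect passed without IL-2 at 500 nM for 4 h (-1.16, adjusted p = 0.0161), IL-2 at 1 nM for 24 h (-0.75, 0.0437) or IL-15 at 1 nM for 24 h (-0.73, 0.0453), and at 500 nM for 4 h Dusp2 was below untreated cells by the test without IL-2 at 500 nM for 4 h (-1.15, 0.0186).

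Dusp10, a phosphatase for p38 and JNK rather than ERK, fell with dose, while its IL-15 over IL-2 ratios were 0.883 to 1.32. It was at 31.9 and 24.1 CPM after IL-15 and IL-2 at 500 nM for 24 h, 31.2 and 28.9 CPM at 500 nM for 4 h, 50.2 and 51.4 CPM at 1 nM for 24 h, 62.6 and 71.0 CPM at 1 nM for 4 h, and 48.6 CPM in untreated cells. All 4 libraries at 500 nM were below all 4 at 1 nM (18.9% of all genes did not overlap between the doses) and below the untreated one. The share of all genes separated in this way from the untreated library was not worked out. The dose effect was -1.01 ± 0.172 (adjusted p = 0.00641; ratios 0.408 to 0.635 in 4 of 4 pairs), and it passed the test without each of the 9 libraries in turn. By time it was -0.86 ± 0.216 at 24 h (adjusted p = 0.00916) and -1.16 ± 0.217 at 4 h (0.00455).

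Against untreated cells, Dusp10 fell by 0.80 ± 0.256 on the log2 scale at 500 nM for 24 h (adjusted p = 0.0377), and its value was -0.69 ± 0.256 at 500 nM for 4 h (0.089). The first of these calls was lost without IL-2 at 500 nM for 24 h (-0.59, adjusted p = 0.327) or IL-15 at 500 nM for 24 h (-1.01, 0.0788). The dose call at 24 h was lost without IL-2 at 500 nM for 24 h (-0.65, adjusted p = 0.196) and that at 4 h without IL-2 at 1 nM for 4 h (-0.98, 0.0641). The myeloid, B cell, NK cell, dendritic cell and erythroid sums were lower at 500 nM than at 1 nM in every matched pair. This was the same direction as Dusp2 and Dusp10 with dose. The sums of T cell and of CD4+ and regulatory T cell markers moved in both directions with dose. The part of these markers in the falls of Dusp2 and Dusp10 was not tested.

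Dusp5 and Dusp4 encode nuclear phosphatases that ERK signalling induces, Dusp5 being selective for ERK. Dusp5 was at 9.32 and 9.01 CPM after IL-15 and IL-2 at 500 nM for 24 h, 22.3 and 13.8 CPM at 500 nM for 4 h, 2.54 and 5.26 CPM at 1 nM for 24 h, 12.7 and 12.0 CPM at 1 nM for 4 h, and 3.58 CPM in untreated cells. All 4 libraries at 24 h were below all 4 at 4 h, a lack of overlap seen in 10.8% of all genes. Dusp5 rose by 2.34 ± 0.556 on the log2 scale at 500 nM for 4 h against untreated cells (adjusted p = 0.0134) and by 1.23 ± 0.411 with dose at 24 h (0.038). The values that missed the threshold were -1.32 ± 0.327 for time (adjusted p = 0.0512), 0.89 ± 0.324 for dose (0.0932) and 0.55 ± 0.400 for dose at 4 h (0.47).

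The rise of Dusp5 over untreated cells at 500 nM for 4 h was lost without IL-15 at 500 nM for 4 h (1.8, adjusted p = 0.0966). Its rise with dose at 24 h was lost without IL-15 at 1 nM for 24 h (0.69, adjusted p = 0.309), IL-2 at 500 nM for 24 h (1.3, 0.145), IL-15 at 500 nM for 24 h (1.21, 0.142), IL-2 at 1 nM for 4 h (1.24, 0.0537) or IL-15 at 1 nM for 4 h (1.24, 0.0542). Calls were gained for time without the untreated library (-1.32, adjusted p = 0.0471) and for dose without IL-2 at 500 nM for 4 h (1.17, 0.047). Without IL-2 at 1 nM for 24 h or IL-15 at 1 nM for 24 h, Dusp5 was above untreated cells by the test at 1 nM for 4 h (1.79, adjusted p = 0.0335, and 1.76, 0.0317) and at 500 nM for 24 h (1.36, 0.0373, and 1.37, 0.0339).

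Dusp4 was at 3.44 and 5.33 CPM after IL-15 and IL-2 at 500 nM for 24 h, 4.64 and 9.91 CPM at 500 nM for 4 h, 2.54 and 1.62 CPM at 1 nM for 24 h, 6.42 and 4.06 CPM at 1 nM for 4 h, and 1.49 CPM in untreated cells. Every treated library was above the untreated one, and each 24 h library was below its matched 4 h library (ratios 0.396 to 0.742). The shares of all genes with either pattern were not worked out. No comparison of Dusp4 passed the test of edgeR. The largest estimates were 2.27 ± 0.776 at 500 nM for 4 h against untreated cells (adjusted p = 0.0673, 95% interval 0.58 to 3.96) and 1.83 ± 0.759 at 1 nM for 4 h (adjusted p = 0.193, interval 0.18 to 3.48).

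Spry1 and Spry2, adaptors that restrain the step from receptor to RAS and RAF, were among the 5 members with the lowest median RPKM. Spry1 was at 1.16 and 1.61 CPM after IL-15 and IL-2 at 500 nM for 24 h, 3.21 and 8.33 CPM at 500 nM for 4 h, 0.402 and 1.70 CPM at 1 nM for 24 h, 2.11 and 4.14 CPM at 1 nM for 4 h, and 2.39 CPM in untreated cells. Its highest library was 20.7 times its lowest, the widest range of the 10 members. Its 4 libraries at 24 h lay below its 4 at 4 h (10.8% of all genes did not overlap between the times). The time effect was -1.82 ± 0.449 (95% interval -2.83 to -0.81, adjusted p = 0.0503). It passed the test without the untreated library (adjusted p = 0.0458). The dose effect was 0.74 ± 0.440 (interval -0.25 to 1.74, adjusted p = 0.279).

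Spry2 had 4 to 28 counts per library, and its highest level was 0.817 CPM after IL-15 at 500 nM for 4 h, against 0.129 CPM in untreated cells. Its estimates had intervals too wide to place, such as 0.92 ± 1.190 for dose (95% interval -1.77 to 3.60), so that differences of several fold in either direction were not detectable at this depth.

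Spred1 and Spred2, which hold RAS in check together with neurofibromin, had no call in any comparison. Spred1 ranged over 3.51 times, from 1.32 CPM after IL-15 to 4.63 CPM after IL-2, both at 1 nM for 4 h, with 1.65 CPM in untreated cells. Its dose effect was 0.03 ± 0.489 (95% interval -1.07 to 1.13). Spred2 was at 0.712 and 1.25 CPM after IL-15 and IL-2 at 500 nM for 24 h, 2.10 and 0.667 CPM at 500 nM for 4 h, 0.604 and 0.277 CPM at 1 nM for 24 h, 0.302 and 0.565 CPM at 1 nM for 4 h, and 1.29 CPM in untreated cells. Its 4 libraries at 500 nM lay above its 4 at 1 nM (ratios 1.18 to 6.96 in 4 of 4 pairs), where 18.9% of all genes did not overlap. Yet on few reads the dose effect was 1.39 ± 0.828 (interval -0.48 to 3.26, adjusted p = 0.282).

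IL-15 and IL-2 are the 2 growth factors the series sets against each other, and no member passed the test between them over matched doses and times. None of the 13479 genes did (0% of all genes), and DESeq2 called 2 genes and 0 members. By edgeR's quasi-likelihood test, 125 genes and 1 member had an unadjusted p below 0.05. That is a smaller share of genes than the 0.05 that evenly spread p-values would give. The test was thus conservative for cytokine, and its lack of calls does not show that the cytokines had equal effects. The 1 member was Spry1, at a log2 fold change of -1.23 ± 0.444 (95% interval -2.23 to -0.23). It was lower with IL-15 in 4 of 4 pairs, at 0.236 to 0.717 of the IL-2 level. For cytokine, dose or time, the share of all genes with 4 of 4 pairs in 1 direction was not worked out. The narrowest intervals were those of Dusp10 (0.08, interval -0.31 to 0.46), Dusp2 (-0.12, -0.55 to 0.30) and Dusp6 (0.04, -0.40 to 0.47). Those of Dusp5 (-0.03, -0.75 to 0.70), Dusp1 (-0.33, -1.11 to 0.45), Dusp4 (-0.09, -1.06 to 0.87), Spred1 (-0.47, -1.59 to 0.65), Spred2 (0.33, -1.51 to 2.17) and Spry2 (0.61, -2.02 to 3.23) leave room for larger differences in either direction. No dependence of the cytokine difference on dose or on time passed the test for any member or any other gene (0% in each). DESeq2 called 3 and 0 genes. At an unadjusted p below 0.05 by edgeR's quasi-likelihood test were 151 and 189 genes and 0 members, again smaller shares than 0.05.

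**Figure D4:**
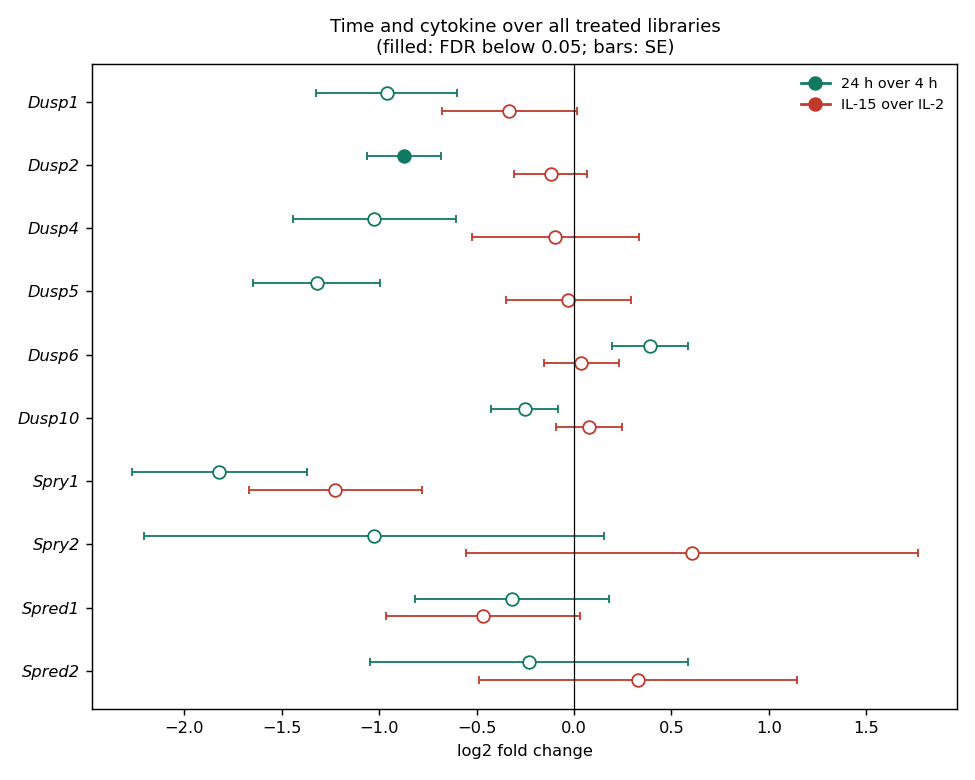
Log2 fold change (x axis) of the 10 genes (rows) for 24 h over 4 h (upper point of each pair) and IL-15 over IL-2 (lower point), over all treated libraries; bars are SE of the fit and filled points have an adjusted p below 0.05. For time, 9 of the 10 genes lay below 0 (median of all genes -0.00), with the bars of Spry2, Spred1 and Spred2 crossing 0. Only Dusp2 (-0.87) passed the test for time. For cytokine Spry1 lay farthest from 0 at -1.23 with no gene passing.

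Matched pairs of 1 IL-15 and 1 IL-2 library have no replicate check, so their intervals cover counting error only. Reads copied by PCR carried no molecular identifiers, so even these intervals may be too narrow. The pairs are described by a ratio past 2-fold in either direction with at least 20 counts in the higher library. At 500 nM for 24 h no member was past 2-fold (7.63% of all genes were). At 500 nM for 4 h there were 4 (13.5% of all genes): Spry1 at 0.385 (95% exact interval 0.306 to 0.482), Dusp4 at 0.468 (0.385 to 0.568), Spred2 at 3.15 (1.93 to 5.34) and Spry2 at 3.37 (1.5 to 8.56). At 1 nM for 24 h there were 3 (15.6% of all genes): Spry1 at 0.236 (0.129 to 0.406), Dusp5 at 0.483 (0.380 to 0.609) and Spred2 at 2.18 (1.08 to 4.56). At 1 nM for 4 h there was 1 (14.0% of all genes), Spred1 at 0.285 (0.193 to 0.412), and Dusp1 was at 0.554 (0.528 to 0.580). Spred2 was above 1 in 2 of its 4 pairs and below 1 in the other 2, and Dusp5 was above 1 in 3 of 4.

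Other genes of the pathway were followed in 3 lists. Of 24 genes of the ERK cascade itself, 2 rose and 1 fell with dose, where 16.1% of all genes changed (median log2 fold change 0.12, all genes -0.03). They were Nras, a RAS gene (0.63 ± 0.143), Map2k1, which encodes the kinase MEK1 (0.61 ± 0.166), and Rasgrp2, an exchange factor acting mainly on RAP (-0.89 ± 0.194). With time, Rps6ka1, an ERK-activated kinase, rose (0.92 ± 0.205; list median -0.09). Of 17 other feedback genes tested, Ptpn7, a blood cell phosphatase of ERK and p38, rose with dose (0.67 ± 0.185) and Rasa3, a GTPase-activating protein for RAS and RAP, fell (-1.11 ± 0.170; list median -0.12), against the same 16.1% of all genes. Both also changed with time (Ptpn7 1.27 ± 0.186, Rasa3 -0.92 ± 0.169), and Dusp7, a cytoplasmic relative of Dusp6, rose with time (0.87 ± 0.190; list median -0.21).

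A list of 20 genes held ERK-induced genes together with transcription factors through which ERK acts, such as Srf and Elk3. Of these 20, 1 rose and 7 fell with time, where 5.30% of all genes changed (median -0.88, all genes -0.00). Among those that fell were Fosb (-2.99 ± 0.668), Nr4a1 (-2.55 ± 0.168), Fos (-2.32 ± 0.284) and Egr2 (-1.98 ± 0.287), all transcription factors of the early response. With dose 1 rose and 1 fell: Myc, a driver of growth (1.59 ± 0.180), and Elk3, an ETS factor (-1.56 ± 0.280; list median 0.18). Since Elk3 is a factor through which ERK acts, its fall is not read as that of an ERK-induced gene. No gene of the 3 lists changed between IL-15 and IL-2.

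The genes most like a member across the 9 libraries were sought by Pearson's r of log2(CPM + 1), for members whose highest library had at least 50 counts and at least 4 times the level of the lowest. Spry2, with at most 28 counts, did not meet the first condition, and Dusp2, Dusp10 and Spred1 did not meet the second. Dusp6 was most like Apob48r (0.952), Nupl1 (0.942) and Hdgfrp3 (0.941), and Dusp1 most like Rev1 (0.955), Thap4 (0.948) and Lrrc8d (0.936). For Dusp5 they were Tinf2 (0.961), Usp4 (0.957) and Atl3 (0.955), and for Dusp4 Anapc10 (0.941), Sec24a (0.939) and Glrx2 (0.929). For Spry1 they were Tmem30a (0.957), Ppp1cb (0.926) and Dync1i2 (0.922), and for Spred2 Smarcal1 (0.909), Msl2 (0.874) and Znrf2 (0.861). Between members, r was highest for Dusp5 with Spry2 (0.800), Dusp2 with Dusp10 (0.755) and Dusp4 with Dusp5 (0.739), and lowest for Dusp10 with Spred2 (-0.573). These values share the same 9 libraries and their depths, and are a description.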

How the data were processed

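RNA was sequenced from 9 libraries, each of 3 pooled samples. Per the submitters' processing notes, bases were called with CASAVA 1.8 and reads aligned with Bowtie 0.12.4 to mm8. For the counting tool, strand use and multi-mapping, nothing is stated in the sources at hand. Deposited were raw counts per RefSeq transcript (24373 transcripts of 20418 symbols). RPKM values beside them were made by the authors, per the file headers and the values, by dividing these counts by exon length and a library total.

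The transcript with the highest mean count stood for each symbol. Genes kept by filterByExpr (minimum count 10, total 15; 13479 genes) were scaled by TMM and tested with edgeR 4.0.16 in R 4.3.3 (quasi-likelihood, legacy deviances, Benjamini-Hochberg over all genes, threshold 0.05). The model held cytokine, dose, time and an untreated term (4 residual degrees of freedom). Single interactions were added 1 at a time, dose by time also for effects at 1 dose or time (3 residual degrees of freedom). Since no condition was repeated, the spread assumes that interactions left out are small. SE is the log2 fold change over the square root of F. The scripts were tested on simulated counts.

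Members, lists and tests were chosen with earlier results of these data known. All members are named. A result that the naming rule gives for another list is not reported here. Up to 4 genes per other list were named by size of change among those past the threshold and averaging 20 counts or more. The 3 genes most like a member were taken among genes averaging 50 counts or more. Alternatives were DESeq2 1.42.0, median-of-ratios scaling, no filter, counts summed over transcripts, a dose by time term, a 1.5-fold limit for pairs, leaving out each library and, added after seeing the data, a block of matched pairs of libraries.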

Additional observations from a re-analysis of the deposited data

Results flagged for a closer look

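Dusp1 was set apart because its dose effect differed between 24 h and 4 h by the test of the dose by time interaction. The difference was 1.73 ± 0.359 on the log2 scale (edgeR's quasi-likelihood test, adjusted p = 0.0141), with 500 nM over 1 nM at 0.71 at 24 h and -1.02 at 4 h. It ranged from 1.31 to 2.15 when each library was left out in turn. The lowest value came without IL-2 at 1 nM for 4 h, where Dusp1 was at 163 CPM, against 90.3 CPM with IL-15 at the same dose and time.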

How the results depend on the processing

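The counts of members that changed stayed within 1.5 times under every alternative run for dose, for 1 nM and 500 nM at 24 h against untreated cells, and for cytokine and its interactions. For time, DESeq2 called 4 members in place of 1 (Dusp1, Dusp2, Dusp5 and Spry1), as did the model with a dose by time term, which takes that interaction out of the residual spread. Leaving out each library in turn gave 0 to 3 members for time, 0 to 1 for dose by time, 0 to 4 for dose at 4 h, 1 to 4 for dose at 24 h, 1 to 3 for 1 nM at 4 h against untreated cells and 1 to 3 for 500 nM at 4 h. Leaving out a treated library also takes away 1 residual degree of freedom; leaving out the untreated one keeps 4. With a limit of 1.5-fold, 5 members were past it between IL-15 and IL-2 at 1 nM for 4 h and 2 at 500 nM for 24 h. The share of all genes past 1.5-fold was not worked out, so these counts cannot be set against it. Dusp5 passed the test for dose under DESeq2 (adjusted p = 0.0427) and with the dose by time term (0.0319). DESeq2 also called Dusp4 at 500 nM for 4 h (0.026) and Dusp5 at 1 nM for 4 h (0.0267) against untreated cells. Dusp1 for dose at 24 h and Dusp2 for dose at 4 h passed under DESeq2 (0.0302 and 0.0318) and without a filter (0.0419 and 0.0498), and Dusp1 also under median-of-ratios scaling (0.0482). No log2 fold change past the threshold changed sign. Among all genes, leaving out a library gave 927 to 2435 calls for dose in place of 2170, 82 to 1328 for time (715), 356 to 1159 for dose by time (1188), 567 to 1561 for dose at 4 h (1355) and 2086 to 4384 for dose at 24 h (4207). Against untreated cells it gave 283 to 1010 at 1 nM for 4 h (850), 93 to 305 at 1 nM for 24 h (222), 1070 to 2397 at 500 nM for 4 h (2209) and 1800 to 3630 at 500 nM for 24 h (3391). DESeq2 called 3495 genes for dose, 2126 for time, 1792 for dose by time (1188 by edgeR), 1359 at 1 nM for 4 h (850) and 728 at 1 nM for 24 h (222) against untreated cells, and a dose by time term gave 4325 for dose and 3045 for time. No paired analysis by replicate number was made, since the labels give none. A fit with the 4 pairs of libraries matched on the other conditions as a block, chosen after seeing the data, called 3 members for dose, 0 for time and 0 for cytokine (1534, 278 and 0 of all genes). Spry2 and Spred2 are limited by their few counts.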

Other observations

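Another phosphatase of the same family, Dusp14, which dampens antigen receptor signalling, had 0 counts in untreated cells. Over a floor of 3 counts in that library, it was at least 10.7-fold higher after IL-15 and 10.8-fold higher after IL-2 at 500 nM for 24 h, and at least 34.9-fold and 15.6-fold higher at 500 nM for 4 h. At 1 nM it was at least 8.31-fold higher after IL-15 and 22.7-fold higher after IL-2 for 24 h, and at least 48.7-fold and 6.67-fold higher for 4 h, so these limits depend on the library. By edgeR's quasi-likelihood test the rise passed at 500 nM (adjusted p = 0.0336 at 24 h and 0.0263 at 4 h) and missed the threshold at 1 nM (0.11 at 24 h and 0.0515 at 4 h). It was picked out after its values were seen, and the untreated library is single.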
